A study of Mus musculus with 18 samples.

Results

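*Nf2*, *Wwc1*, *Sav1*, *Lats2* and *Wtip* are 5 genes of the Hippo signalling pathway that were chosen by a measured value, their low translational efficiency (TE) in the mesoderm of the mouse embryo. They are 5 of the 11054 genes present in both deposited tables of normalized reads, where they were found by their UCSC identifiers. TE is the number of ribosome-protected fragments (RPFs) of a gene, sequenced by Ribo-Seq, over its mRNA reads from RNA-Seq of poly(A) RNA. Embryos at E11.5 gave 3 replicates of each library type for each of 3 tissues, 18 libraries in all. The mesoderm consisted of GFP+ cells sorted from embryos that carried R26-mTmGflox/+ together with Tg(T-cre)1LWD/J/+, in which Cre driven by the *T* promoter switches on membrane GFP in cells that descend from the primitive streak. Cells that were GFP+ but still carried the membrane Tomato of the reporter were kept in the sort. FVB embryos, with no transgene, were the source of the other two tissues, the neural tube (called NT) and the buds of the forelimb (called FL), which were dissected and not sorted, so each holds several cell types. All 3 tissues were handled in cycloheximide, which arrests elongating ribosomes. Because the low TE in the mesoderm chose the genes, their mesoderm values are given as a description. The mesoderm model, fitted across all genes, serves only to say which genes met the TE-low criterion there, and test results for the 5 genes are given only for the NT and the FL.

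The Hippo pathway is a chain of kinases that restrains organ growth. At its core Mst kinases, held by the scaffold protein encoded by *Sav1*, activate the Lats kinases, one of which is encoded by *Lats2*, and the Lats kinases phosphorylate the coactivators Yap and Taz so that these stay out of the nucleus. *Nf2* encodes Merlin and *Wwc1* encodes Kibra, membrane-associated proteins that act upstream and favour activation of the kinases. *Wtip* encodes a LIM domain protein of the Ajuba family, which binds Lats kinases and Sav1 and counts as a negative regulator of the pathway.

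On GRCm38 (mm10), as annotated by GENCODE M21, all 5 genes lie on the minus strand. *Nf2* (uc007hvf.2) spans chr11:4765845-4849536, *Wwc1* (uc007ili.1) chr11:35838400-35980527, *Sav1* (uc007nte.2) chr12:69965012-69987002, *Lats2* (uc007udk.1) chr14:57689662-57758388 and *Wtip* (uc009gis.2) chr7:34109543-34133268. The transcript with the longest coding sequence (CDS) of each gene carried at least 1 ATG in its 5′ leader upstream of the start codon (uATG), as did 51.1% of 21549 coding genes. *Lats2* had 8 uATGs in a leader of 436 nt, *Wwc1* 4 in 438 nt, *Nf2* 2 in 551 nt, *Sav1* 1 in 235 nt and *Wtip* 1 in 209 nt, against a median leader of 157 nt over all genes. Reading frames from 14 of the 16 uATGs ended within the leader, and those of 1 uATG each in *Wwc1* and *Lats2* ran past the start codon out of frame. Shorter annotated transcripts exist for *Nf2*, down to a leader of 0 nt with 0 uATGs, and for *Lats2*, down to 84 nt with 1 uATG, and the structure of the canonical UCSC isoforms that the authors counted was not used here, so their leaders can differ from these. The study also mapped 5′ ends by RACE and obtained longer leaders than annotated for *Wwc1* and *Sav1*. Those were not analysed here, so the leader lengths and uATG counts of both genes refer to the annotation only. The bases around the 5 start codons, and around the uATGs in a strong context or with a frame that overlaps the CDS, are printed because the context of an ATG is known to influence whether scanning ribosomes start there. The ATG is in capitals, and a context was called strong where the third base before the ATG was A or G and the base right after it was G.
Nf2 start codon: cgcgccATGgccg
Nf2 uATG 97 nt before the start, strong: gccaccATGgtgg
Wwc1 start codon: gggaagATGcccc
Wwc1 uATG 29 nt before the start, overlapping: agctgcATGgggg
Sav1 start codon: gcgaggATGctgt
Lats2 start codon: ctaacaATGaggc
Lats2 uATG 359 nt before the start, strong: gggaagATGgagc
Lats2 uATG 196 nt before the start, strong: agagtgATGgtct
Lats2 uATG 25 nt before the start, overlapping: gtatttATGgtaa
Wtip start codon: acggccATGcagc

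Among the 5 start codons only that of *Nf2* met both conditions for a strong context. The map of the leaders places every uATG by its distance from the start codon. These features are a description of the annotation, and their part in the TE of the genes was not tested here. The study tested cloned leaders of *Nf2*, *Wwc1*, *Sav1* and *Lats2* in luciferase reporters in cultured cells. Each lowered translation relative to a control leader. Mutating their uATGs together with non-canonical start sites raised it. *Wtip* was not among the genes assayed.

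**Figure D1:**
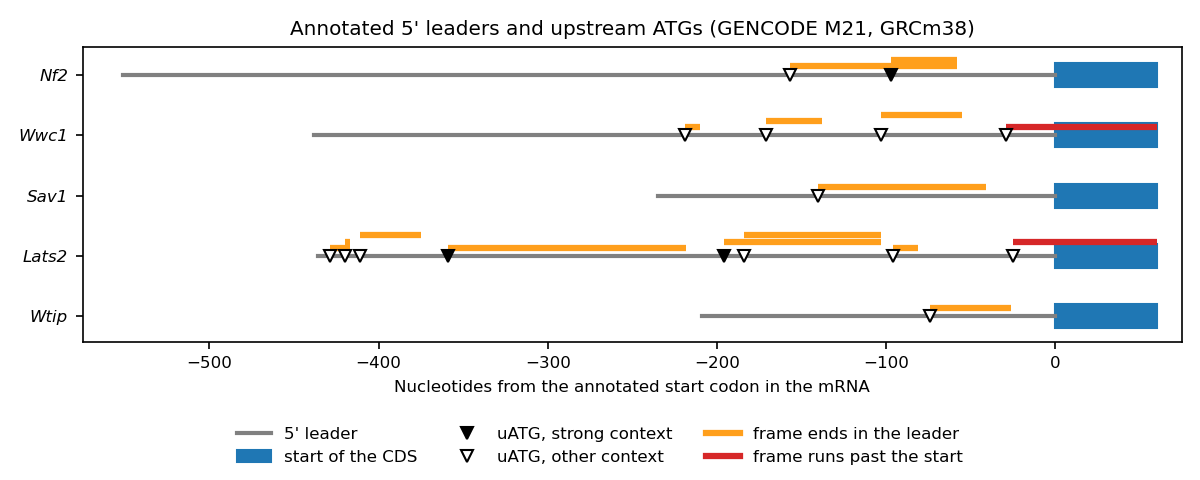
Annotated 5′ leaders of the 5 genes, with distance from the start codon in nucleotides on the x axis. Triangles mark uATGs (filled for a strong context), orange bars the frames that end in the leader and red bars the frames that run past the start codon. The 8 uATGs of *Lats2* spread over its whole leader of 436 nt, whereas *Sav1* and *Wtip* have 1 each.

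The libraries held 24555103 to 50136443 mRNA reads and 11000015 to 31993255 RPF reads on the genes of the tables. Ribo-Seq replicate 3 stood apart in both dissected tissues. Across genes, Pearson's r of log2 normalized reads was 0.99 between NT Ribo-Seq replicates 1 and 2 but 0.93 between either and replicate 3. In FL it was 0.98 between replicates 1 and 2 and 0.89 or 0.90 with replicate 3, and FL replicate 3 correlated with the NT Ribo-Seq libraries at 0.80 to 0.82, against 0.70 to 0.78 for FL replicates 1 and 2. Results for NT and FL are therefore also given without replicate 3. Leaving it out of both tissues was chosen after seeing the data. Removing FL libraries that resemble NT can by itself widen FL minus NT, so those fits describe how the results depend on replicate 3. Of 28 marker genes of tissues and cell types, 14 could be found by symbol. *Nes*, of neural progenitors, had 14760 to 22760 normalized mRNA reads in NT and 4325 to 5266 in FL, and *Dcx*, of young neurons, 2675 to 7953 and 301 to 345. The distal limb gene *Hoxd13* had 54.6 to 192 in NT and 6659 to 9600 in FL. NT RNA-Seq replicate 1 differed from the other two NT replicates in *Epcam*, an epithelial gene (659 against 96.0 and 107), in *Tcf15*, a gene of the paraxial mesoderm (436 against 125 and 53.0), and in *Dcx* (2675 against 7953 and 6797). The embryonic globin *Hba-x* ranged from 10789 to 18979 in NT and 13021 to 23440 in FL. In the sorted mesoderm, normalized apart and so not on the same scale, it ranged from 2251 to 12367. The part of these differences in the results was not tested, and in bulk tissue fewer cells of a type and less RNA per cell cannot be told apart.

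In the mesoderm, all 5 mRNAs were detected in every library while their RPFs stayed low. *Nf2* had 2112, 2014 and 1570 normalized mRNA reads in replicates 1, 2 and 3 and 651, 427 and 544 normalized RPF reads. *Wwc1* was the least abundant, with 383, 550 and 498 mRNA reads and 116, 80.9 and 111 RPF reads. Behind these RPF values stood 78, 39 and 49 sequenced reads, the fewest of any of the 5 genes in the mesoderm, so that its TE is the least precisely counted. *Sav1* had 1812, 1472 and 1407 mRNA reads and 454, 365 and 235 RPF reads. *Lats2* had 1688, 2366 and 2477 mRNA reads and 654, 423 and 626 RPF reads. *Wtip* had 1646, 2895 and 2814 mRNA reads and 383, 641 and 1037 RPF reads. In replicate 1 *Wtip* was low in both library types, so its ratio varied less than its reads.

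Expressed as log2 TE centred on the median gene of the mesoderm, *Wwc1* stood at -2.24 ± 0.52 (SD, n = 3), *Sav1* at -2.23 ± 0.33, *Lats2* at -1.98 ± 0.56, *Wtip* at -1.94 ± 0.40 and *Nf2* at -1.85 ± 0.37. These are 3.61-fold (*Nf2*) to 4.73-fold (*Wwc1*) below the median gene. All 5 met the criterion used for TE-low genes, an adjusted p under 0.05 and a TE 3-fold or more below the median, as did 10.9% of the 12064 mesoderm genes. Since the genes were picked for this, nothing is read from that count. Their ranks from the lowest TE ran from 505 (*Wwc1*) to 922 (*Nf2*) of 12064 genes, so that many other genes lay lower. Neighbours in this order differed by 0.01 to 0.25 on the log2 scale, less than the SD of either, and the 5 genes cannot be ordered. At the edge of the 3-fold threshold, log2 TE of -1.585, the pathway gene just inside was *Wwc2*, a paralogue of *Wwc1*, at -1.61 and the one just outside was *Vgll3* at -1.58.

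**Figure D2:**
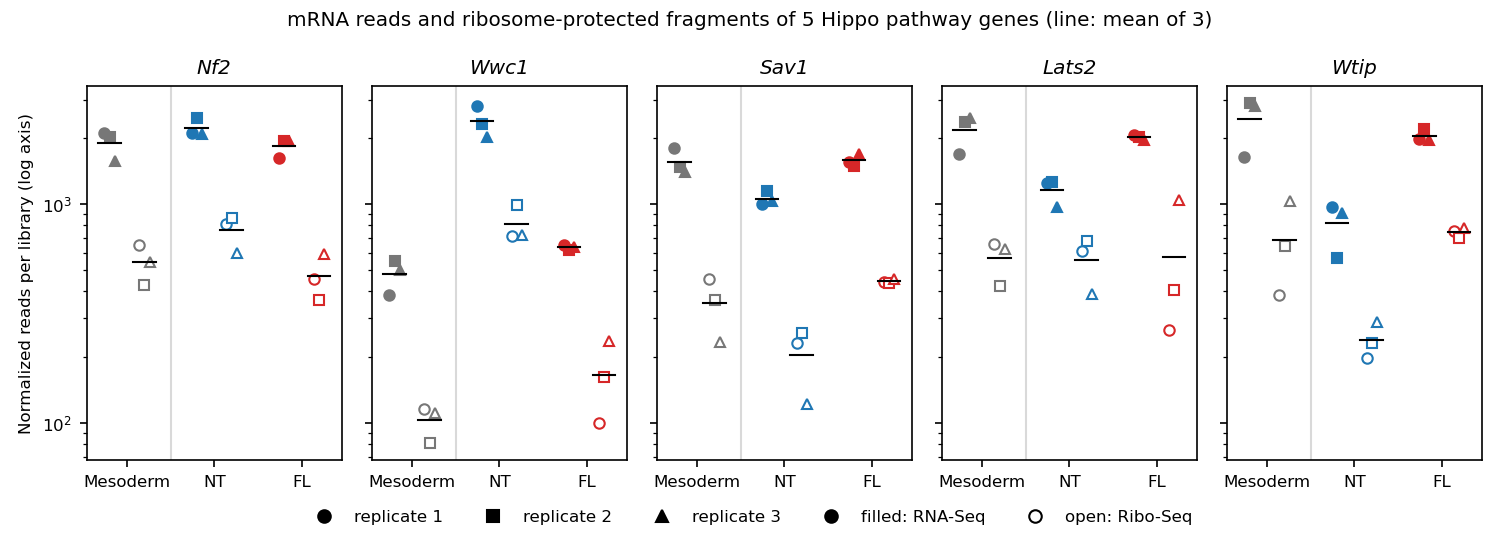
Normalized reads of the 5 genes in each of the 18 libraries on a log axis, filled for RNA-Seq and open for Ribo-Seq, with the mean of 3 replicates as a line. The mesoderm was normalized apart from NT and FL. RPF reads lie below mRNA reads for every gene in every tissue, and FL Ribo-Seq replicate 3 of *Lats2*, at 1047 normalized reads, lies above replicates 1 and 2 at 266 and 405.

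In the NT, a tissue whose libraries had no part in choosing the genes, all 5 genes again had a TE below that of the median gene, and 4 of the 5 were TE-low. The share of TE-low genes among all 11231 genes tested was 4.3%. Among the 1195 genes that were TE-low in the mesoderm and present in both tables, 32.0% (382) were also TE-low in the NT. The test was that of the Ribo-Seq over RNA-Seq coefficient in limma, with a Benjamini-Hochberg adjusted p over all genes.

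*Sav1* had the lowest TE of the 5 in the NT. Its mRNA reads were 1003, 1141 and 1030 and its RPF reads 232, 257 and 122 in replicates 1, 2 and 3. Its log2 TE was -2.14, -2.18 and -3.10, on average 5.55-fold below the median gene (-2.47 ± 0.54, SD, n = 3, limma adjusted p = 0.0022), and 138th from the lowest of 11231 genes. Replicate 3 was the lowest of its RPF values, and without replicate 3 the log2 TE was -2.16.

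*Wtip* had 972, 567 and 906 mRNA reads and 197, 232 and 290 RPF reads in the NT. Its log2 TE of -2.32, -1.32 and -1.67 averaged -1.77 ± 0.51 (SD, n = 3, limma adjusted p = 0.0054). Replicate 1 was the lowest, and without it the mean was -1.51, no longer 3-fold below the median gene.

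*Nf2* had 2108, 2481 and 2092 mRNA reads and 814, 865 and 597 RPF reads in the NT. Its log2 TE of -1.40, -1.55 and -1.84 averaged -1.60 ± 0.22 (SD, n = 3, limma adjusted p = 0.0036), 3.02-fold below the median gene and only just past the threshold. Without replicate 3 it was -1.47 and no longer TE-low, while the adjusted p stayed under 0.05 (limma, 1.2e-05). In that fit the variance came almost wholly from the trend over all genes, so this p does not reflect the spread of *Nf2* itself.

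*Wwc1* had 2795, 2329 and 2026 mRNA reads and 712, 990 and 722 RPF reads in the NT, more of both than in the FL. Its log2 TE of -2.00, -1.26 and -1.52 averaged -1.59 ± 0.38 (SD, n = 3, limma adjusted p = 0.0041), likewise just past the threshold at 3.02-fold. Without replicate 1 it was -1.40 and no longer TE-low, so that 2 of the 5 genes, *Nf2* and *Sav1*, were TE-low without that replicate.

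*Lats2* was the exception in the NT. It had 1249, 1256 and 967 mRNA reads and 607, 677 and 387 RPF reads. Its log2 TE of -1.07, -0.92 and -1.35 averaged -1.11 ± 0.22 (SD, n = 3, limma adjusted p = 0.013), below the median gene but only 2.16-fold. In the order of the 5 genes, *Sav1* lay below *Wtip* by 0.70 and *Wwc1* below *Lats2* by 0.48, gaps larger than the SD of the genes compared although single replicates overlapped. *Wtip*, *Nf2* and *Wwc1* did not differ beyond their SDs.

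In the FL, 4 of the 5 genes were TE-low, against 13.4% of all 11231 genes and 84.4% (1008) of the 1195 genes that were TE-low in the mesoderm. The exception was now *Wtip*. Without replicate 3 the count was 3 of the 5 in the NT (3.87% of all genes) and 4 of the 5 in the FL (18.2% of all genes). *Nf2*, *Wwc1* and *Sav1* met the criterion in all 3 tissues, as did 27.7% (331) of those 1195 genes.

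*Lats2* had the most scattered TE. Its mRNA reads were 2072, 2028 and 1961 in the FL, within a narrow range, but its RPF reads were 266, 405 and 1047. The log2 TE was accordingly -2.96, -2.32 and -0.91, with a mean of -2.06 ± 1.05 (SD, n = 3, limma adjusted p = 0.0076). Replicate 3 lay at the upper end of the NT values of the gene, whose highest was -0.92, and replicates 1 and 2 lay below all of them. Without replicate 3 the mean was -2.66, 6.30-fold below the median gene.

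*Wwc1* had 652, 615 and 639 mRNA reads and 99.4, 162 and 237 RPF reads in the FL, from 62, 76 and 159 sequenced fragments. Its log2 TE was -2.70, -1.92 and -1.43 (mean -2.02 ± 0.64, SD, n = 3, limma adjusted p = 0.0058). As for *Lats2*, replicate 3 had the most RPF reads, and without it the mean was -2.33.

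*Nf2* had 1629, 1950 and 1947 mRNA reads and 455, 364 and 588 RPF reads in the FL, and a log2 TE of -1.84, -2.42 and -1.73 (mean -2.00 ± 0.37, SD, n = 3, limma adjusted p = 0.0055). *Sav1* was the steadiest, with 1549, 1497 and 1700 mRNA reads and 443, 437 and 452 RPF reads. Its log2 TE of -1.81, -1.78 and -1.91 averaged -1.83 ± 0.07 (SD, n = 3, limma adjusted p = 0.0055). These genes were TE-low in the FL with each replicate left out in turn.

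*Wtip* had 1986, 2202 and 1962 mRNA reads and 750, 697 and 778 RPF reads in the FL. Its log2 TE of -1.41, -1.66 and -1.34 averaged -1.47 ± 0.17 (SD, n = 3, limma adjusted p = 0.0059), which is 2.77-fold below the median gene and short of 3-fold. Its replicates did not overlap those of its neighbour *Sav1*, 0.36 lower, whereas *Lats2*, *Wwc1*, *Nf2* and *Sav1* lay within the SD of the most variable of each neighbouring pair.

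**Figure D3:**
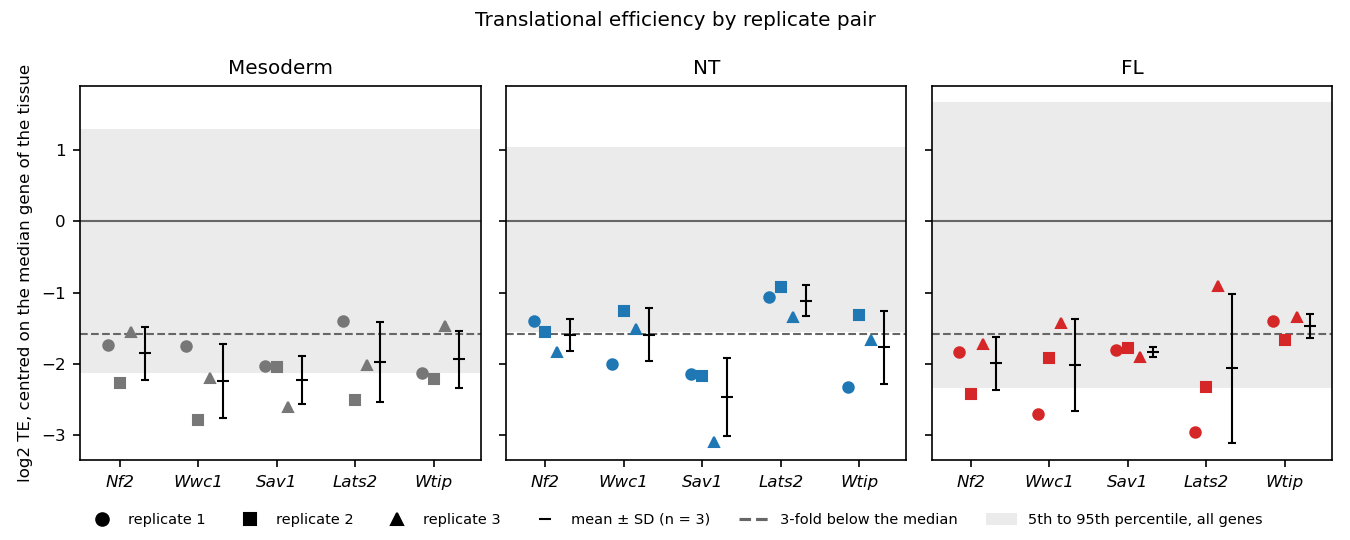
Log2 TE of each replicate pair, centred on the median gene of the tissue, with the mean ± SD (n = 3) in black. The grey band spans the 5th to the 95th percentile of all genes and the dashed line marks 3-fold below the median. All 45 values lie below 0, *Lats2* in NT and *Wtip* in FL have means above the dashed line, and *Lats2* in FL spans -2.96 to -0.91.

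Levels of different genes can be compared only per length. The mesoderm was normalized apart, so its levels serve to order genes within it and not to compare it with NT or FL. Per kilobase of the annotated CDS, less the codons the authors left out, *Wtip* had the most mRNA in the mesoderm (2156 ± 614 normalized reads per kb, SD, n = 3) and in the FL (1803 ± 116), but 717 ± 191 in the NT. *Nf2* led in the NT at 1286 ± 127 and had 1064 ± 107 in the FL. *Wwc1* was lowest in the mesoderm at 147 ± 26.2 and in the FL at 195 ± 5.83 but had 732 ± 119 in the NT, where *Lats2* was lowest at 377 ± 53.8. In RPFs per kb, *Wtip* was also highest in the FL (652 ± 36.2) and *Wwc1* lowest (51.1 ± 21.2).

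FL and NT were then compared for each gene in a single limma fit of their 12 libraries. In it the mRNA, the RPFs and the TE each have a difference, FL minus NT, centred on the median gene. Each gene has a single residual variance in this fit. The SEs of its mRNA and RPF changes are therefore equal and carry the spread of both library types. A change was called where it reached 2-fold with an adjusted p under 0.2, the threshold used for the change in TE. The mRNA of 2 of the 5 genes changed, *Wwc1* lower and *Wtip* higher in FL, against 19% of 11231 genes in either direction. The RPFs of 3 changed, against 35.1% of all genes. The TE of none passed, against 0.383% of all genes.

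*Wwc1* mRNA was 3.77-fold lower in FL, a log2 change of -1.92 ± 0.28 (SE, limma adjusted p = 1.9e-04). Its RPFs were 5.21-fold lower, at -2.38 ± 0.28 (SE, limma adjusted p = 2.2e-05). The highest FL value lay below the lowest NT value in both measures. The sign and call were the same without replicate 3 of both tissues, at -2.02 for mRNA and -2.76 for RPFs. In that fit 2 of the 5 genes, again *Wwc1* and *Wtip*, changed in mRNA (19.3% of all genes) and 4 in RPFs (50.6% of all genes).

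*Wtip* moved the other way. Its mRNA was 2.54-fold higher in FL, a log2 change of 1.34 (95% CI 0.84 to 1.85, limma adjusted p = 7.4e-04), and its RPFs 3.04-fold higher, at 1.60 (95% CI 1.10 to 2.11, limma adjusted p = 1.3e-04). Again no NT value reached the FL values. The changes were 1.48 and 1.71 when replicate 3 of both tissues was left out.

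*Sav1* RPFs were 2.23-fold higher in FL, a log2 change of 1.15 (95% CI 0.60 to 1.71, limma adjusted p = 0.0029). Its mRNA was 0.56 higher on the log2 scale (95% CI 0.01 to 1.11, limma adjusted p = 0.15), under 2-fold. The size of the RPF change rested on NT replicate 3, the library with the fewest *Sav1* fragments (84). Without it the change was 0.82 (limma adjusted p = 0.0074), and without replicate 3 of both tissues 0.80 (limma adjusted p = 0.0029), each under 2-fold.

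*Nf2* changed least in mRNA, at -0.30 (95% CI -0.78 to 0.19, limma adjusted p = 0.43). Its RPFs were lower in FL by a log2 change of -0.74 (95% CI -1.22 to -0.25, limma adjusted p = 0.018), short of 2-fold. Leaving out replicate 3 of both tissues, the RPF change was -1.09 (limma adjusted p = 5.5e-04), 2.13-fold lower and past the threshold.

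*Lats2* had more mRNA in FL than in NT in every replicate, by 0.79 on the log2 scale (95% CI -0.06 to 1.64, limma adjusted p = 0.19), short of 2-fold. The SE of 0.39 behind this interval also carries the scatter of the *Lats2* RPFs in FL. Without FL replicate 3 the mRNA change was 0.82 (limma adjusted p = 0.048). The RPFs of *Lats2* overlapped between the tissues, with a difference of -0.20 (95% CI -1.05 to 0.64, limma adjusted p = 0.69). With replicate 3 of both tissues left out, the RPFs were 2.01-fold lower in FL, at -1.01 (limma adjusted p = 0.0020).

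Across the 5 genes, the 3 mRNA values of NT and FL did not overlap for any gene, against 47.3% of all genes without overlap. RPFs did not overlap for 4 of the 5, all but *Lats2*, against 42.6% of all genes. TE did not overlap for 1, *Sav1*, against 17%.

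The changes in TE between FL and NT were all under 2-fold in the fit of 12 libraries. *Lats2* had the largest, at -0.99 (95% CI -2.18 to 0.21, limma adjusted p = 0.32), followed by *Sav1* at 0.60 (95% CI -0.18 to 1.38, limma adjusted p = 0.34). *Wwc1* was at -0.46 (95% CI -1.33 to 0.41, limma adjusted p = 0.48), *Nf2* at -0.44 (95% CI -1.12 to 0.25, limma adjusted p = 0.40) and *Wtip* at 0.27 (95% CI -0.45 to 0.98, limma adjusted p = 0.62). For 0 of the 5 was the unadjusted p under 0.05, and edgeR and DESeq2 on the recovered reads called 0 of the 5. The intervals reach past 2-fold lower for *Lats2*, *Wwc1* and *Nf2* and past 2-fold higher for *Sav1*, so changes of that size were not excluded by these libraries.

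The TE comparison depended on replicate 3. The fit without it in both tissues was chosen after seeing the data. FL Ribo-Seq replicate 3 was the FL library most like NT, so its removal can by itself widen the differences. The p-values of such fits are therefore not read as tests of a change. Without replicate 3 of both tissues, 42.5% of all genes had a change in TE by the same thresholds, against 0.383% with all 12 libraries. Of the 5 genes, 1 did. The TE of *Lats2* was then 3.31-fold lower in FL, at -1.73 (95% CI -2.41 to -1.05, limma adjusted p = 0.0017), and with FL replicate 3 alone left out it was -1.58 (limma adjusted p = 0.013), where 35.2% of all genes were called. In the fit without replicate 3 of both tissues *Nf2* stood at -0.74 (limma adjusted p = 0.042), *Wwc1* at -0.76 (limma adjusted p = 0.12), *Sav1* at 0.28 (limma adjusted p = 0.38) and *Wtip* at 0.21 (limma adjusted p = 0.66), all under 2-fold. The direction of each of the 5 changes was the same with and without these libraries.

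**Figure D4:**
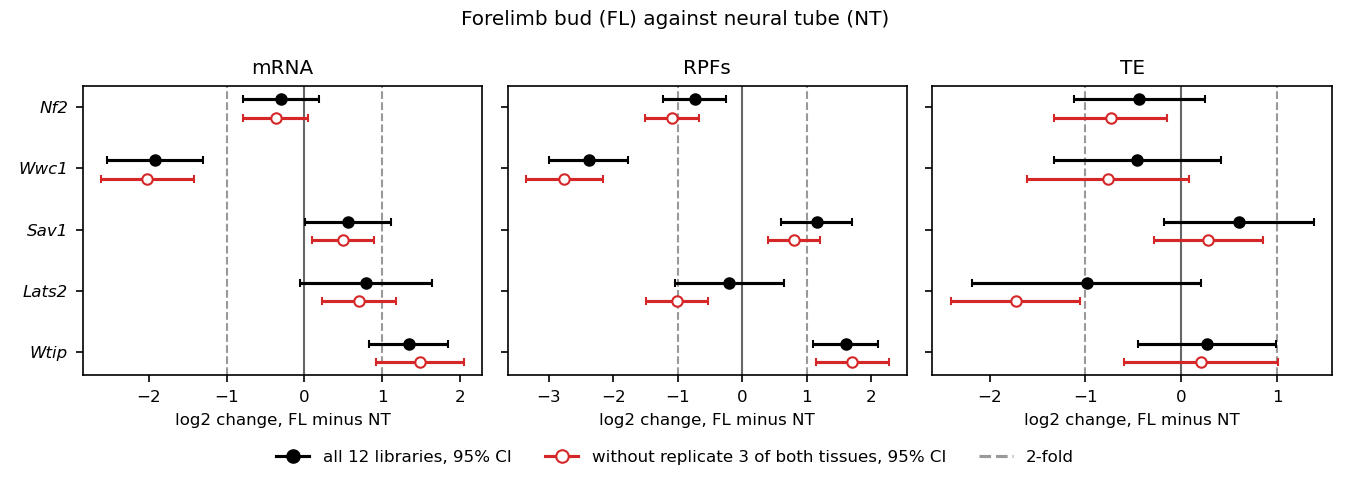
Log2 change, FL minus NT, of mRNA, RPFs and TE for the 5 genes, with 95% confidence intervals. Black points use all 12 libraries and red open points leave out replicate 3 of both tissues, a choice made after seeing the data. *Wwc1* lies below -1 and *Wtip* above 1 in mRNA and RPFs in both fits, while in TE only *Lats2* without replicate 3, at -1.73, has an interval wholly below -1.

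The other genes of the pathway were taken from a list of 56 genes, of which 24 could be found by symbol. The supplementary tables that pair symbols with identifiers favour genes with large shifts, so these 24 are not an even sample of the pathway. Their median log2 TE was -0.72 in the NT and -1.65 in the FL, against 0 for all genes by construction, and -1.38 in the mesoderm. In the NT 1 of the 24 was TE-low (4.3% of all genes) and in the FL 13 (13.4% of all genes). Only *Sav1* of the 5 genes lay lower in the NT than every one of these 24.

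The 1 gene TE-low in the NT was *Map4k2*, a kinase of the family that can activate the Lats kinases, at -1.95 ± 0.61 (SD, n = 3, limma adjusted p = 0.0042). It was also TE-low in the FL, at -2.07 ± 0.44 (limma adjusted p = 0.0055). Of the 11 kinases and their partners found, 7 were TE-low in the FL, namely *Lats1*, *Taok1*, *Taok2*, *Map4k2*, *Map4k3*, *Map4k4* and *Mink1*. *Lats1*, the paralogue of *Lats2*, had -0.39 ± 0.61 in the NT (SD, n = 3, limma adjusted p = 0.29) and -1.89 ± 0.51 in the FL (limma adjusted p = 0.0055). *Taok2*, a kinase upstream of the Mst kinases, had -2.50 ± 0.99 in the FL (limma adjusted p = 0.0057) and *Mink1* -2.47 ± 0.86 (limma adjusted p = 0.0055). These were the lowest FL values of the kinases, and their gap was smaller than either SD.

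Among 9 upstream and polarity genes found, 6 were TE-low in the FL, namely *Wwc2*, *Fat1*, *Fat3*, *Fat4*, *Scrib* and *Dlg5*. The atypical cadherins *Fat1*, *Fat3* and *Fat4* had SDs of 1.39 to 1.63 in the FL, and *Fat1* and *Fat4* were not TE-low there once replicate 1 or replicate 2 was left out, nor was *Wwc2* without replicate 1. Of the 24 genes, 10 were TE-low in the FL without replicate 1 and 11 without replicate 2. The polarity scaffold *Scrib* stood at -1.13 ± 0.32 in the NT and -2.20 ± 0.89 in the FL (SD, n = 3), and *Wwc2* at -0.90 ± 0.23 and -1.68 ± 0.65. The 14-3-3 proteins hold phosphorylated Yap in the cytoplasm. The 3 of their genes that could be found were at the other end, and the others on the list could not be found by symbol. *Ywhab*, *Ywhae* and *Ywhaq* had log2 TE of 1.09, 1.23 and 1.02 in the NT and 1.64, 1.82 and 1.72 in the FL, at least 3-fold above the median gene in the FL (limma adjusted p = 0.0059, 0.0071 and 0.0071).

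**Figure D5:**
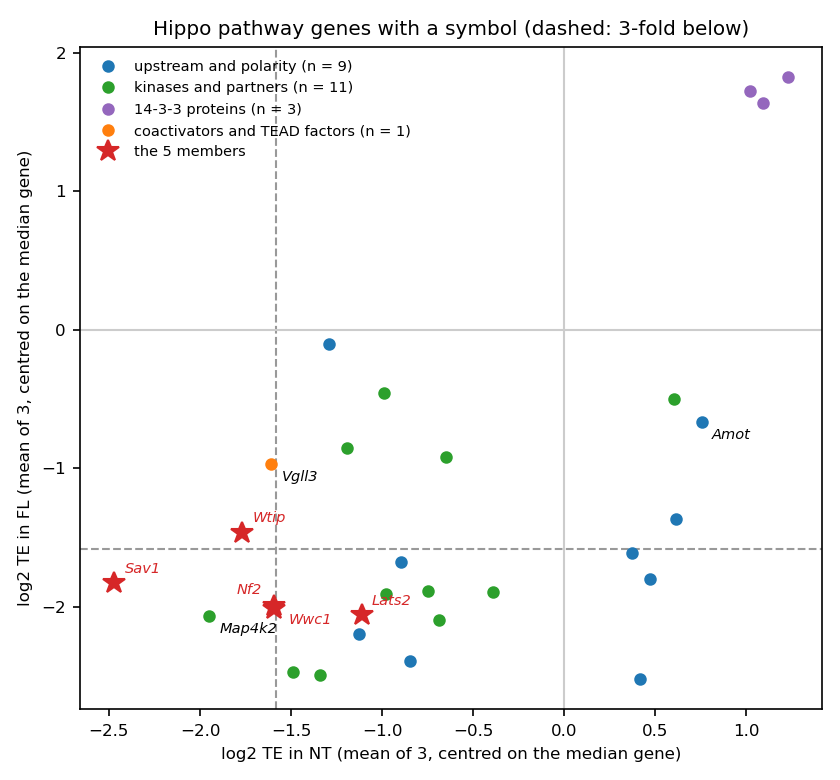
Mean log2 TE in NT (x axis) and FL (y axis) of the 5 genes (red stars) and of 24 other Hippo pathway genes coloured by role, each centred on the median gene of the tissue, with dashed lines 3-fold below. *Nf2*, *Wwc1* and *Sav1* share the lower left field with *Map4k2*, and the 3 14-3-3 genes lie at the upper right.

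Between FL and NT, 10 of the 24 genes had lower and 3 higher RPFs in FL (20.5% and 14.6% of all genes), and 2 had lower and 4 higher mRNA (10.5% and 8.45%). The larger RPF decreases included *Fat3* (-3.90), the kinase *Tnik* (-3.26), *Fat4* (-2.31), *Taok1* (-2.08) and *Lats1* (-2.06), with limma adjusted p from 8.0e-07 to 0.0026. *Mpp5*, *Scrib*, *Taok2*, *Taok3* and *Map4k4* completed the decreases, at -1.99 to -1.38. RPFs were higher in FL for *Amot* (1.54), *Map4k1* (1.54) and *Llgl2* (1.30), the last at a limma adjusted p of 0.14 and not called by edgeR, and mRNA for *Amot* (3.01), *Fat1* (1.38), *Map4k1* (1.24) and *Dlg5* (1.20). *Tnik* (-2.11) and *Taok3* (-1.86) had lower mRNA. The decrease of *Wwc1* mRNA thus had *Tnik* and *Taok3* beside it, and the increase of *Wtip* mRNA had those 4 genes.

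A change in TE passed for 1 of the 24 (0.383% of all genes), *Amot*, which encodes angiomotin, a junctional protein that binds Yap. Its mRNA reads were 922, 967 and 1204 in the NT and 8646, 8897 and 7604 in the FL, and its RPF reads 1974, 1803 and 1539 against 3993, 5024 and 7325. The TE fell by 1.46 on the log2 scale (limma adjusted p = 0.17). The call was lost with an adjusted p under 0.05, with edgeR (-1.42, adjusted p = 0.25) and with the replicate number as a block (limma adjusted p = 0.38). DESeq2 kept the call (-1.43, adjusted p = 0.012), and called 736 of all genes. The limma call was also lost with replicate 1 or 2 of either tissue left out, at -1.38 to -1.23 (limma adjusted p = 0.49 to 0.75). Those fits called only 0 to 2 of all genes. In the fit without replicate 3 of both tissues 15 of the 24 genes had a lower and 2 a higher TE in FL, where 42.5% of all genes were called.

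The genes whose TE pattern was most like that of each of the 5 were found by the root mean square difference over 9 centred log2 TE values, 3 replicates in 3 tissues, among 2914 genes with a symbol and at least 100 normalized mRNA reads in each tissue. *Lats2* had the closest match of all, *Arhgef10l* at a difference of 0.12, followed by *Arap3* at 0.18. For *Wwc1* the nearest were *Kif1c* (0.21) and *Ube3b* (0.23), for *Nf2* *Hmgxb3* and *Kat6b* (both 0.23), for *Wtip* *Thra* (0.26) and *Atg4d* (0.30), and for *Sav1* *Satb1* (0.30) and *Ankrd16* (0.34). *Arhgef10l* had a mean log2 TE of -1.99 in the mesoderm, -1.13 in the NT and -2.11 in the FL, the same order of tissues as *Lats2*. *Satb1* had -2.48, -2.34 and -1.84, with the FL highest, as for *Sav1*. The libraries are shared by all genes, so these likenesses include what is common to a library.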

How the data were processed

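Ribo-Seq and RNA-Seq libraries of the mesoderm, NT and FL at E11.5 were analysed, 3 replicates each. The authors trimmed adapters with cutadapt, aligned with Bowtie2 to canonical UCSC known gene isoforms (mm10), kept unique reads and counted reads over the CDS, leaving out the first 15 and the last 5 codons. The deposited signal values are these counts divided by the DESeq effective library size. Mesoderm (12064 genes) and NT with FL (11231 genes) were normalized separately, so tests stayed within a table. Only TE is compared between the mesoderm and the other tissues, since their read levels are not on one scale. In each library 100.0% of values were whole multiples of 1 read (within 0.0051 reads), which gave the reads for depth and for edgeR and DESeq2.

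TE in each tissue was the Ribo-Seq over RNA-Seq coefficient on the log2(normalized reads + 1) scale, fitted with limma 3.58.1 under R 4.3.3, a scale that understates changes of low genes, with the variance trend and the replicate number as a block. It was centred on the median gene. The methods state that the cells of each replicate were split between the library types, which is the source of this pairing. Deviations from the condition means correlated at 0.74, 0.58 and 0.57 in the mesoderm, -0.28, 0.35 and 0.05 in NT and 0.05, 0.12 and 0.09 in FL. Per the study's methods NT and FL were taken from the same embryos, but equal replicate numbers are not stated to mark them. FL minus NT was therefore fitted without a block and with one as an alternative. This main fit also left out the pairing of library types within a tissue, since the study states no replicate term for its interaction. A replicate block within tissue was run for TE as an alternative. P-values were adjusted by Benjamini-Hochberg over all genes of the fit, and thresholds are given with the results. The p-values rest on the spread between replicates described by the study as biological, which limma moderates with the spread of all genes in the fit. The SD of a single gene can thus be larger or smaller than its p-value reflects. In the FL *Lats2* had an SD of 1.05 and an SE of 0.40, and *Sav1* an SD of 0.07 and an SE of 0.23. In the NT and FL fits of TE without replicate 3 the variance came almost wholly from the trend over all genes.

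Symbols came from the study's supplementary tables, which pair 28.4% of mesoderm and 29.2% of NT and FL identifiers. Named genes are the 5 genes, other genes of the pathway list called in a test and the 2 nearest in TE pattern. The members and lists were chosen with earlier results of these data known. Sequences and positions are from GENCODE M21 (GRCm38). Alternatives were pseudocounts of 0.1 and 8, a filter at a mean of 100 normalized reads, edgeR 4.0.16, DESeq2 1.42.0, other blocks, no centring, other thresholds and leaving out replicates.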

Additional observations from a re-analysis of the deposited data

Results flagged for a closer look

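The change in TE of *Amot* between FL and NT was picked out because the interaction of library type with tissue passed its threshold, with a log2 change of -1.46 (limma adjusted p = 0.17). Its log2 TE was 1.07, 0.87 and 0.32 in the NT and -1.12, -0.83 and -0.06 in the FL, lower in all 3 FL replicates than in any NT replicate. Replicate 3 was the closest to the other tissue on both sides. Without replicate 3 of both tissues, a fit chosen after seeing the data, the change was -2.02 (limma adjusted p = 1.8e-04). With replicate 1 or 2 of either tissue left out it was -1.23 to -1.38 and no longer called (limma adjusted p = 0.49 to 0.75). Those fits called only 0 to 2 of all genes. With all 12 libraries, DESeq2 called the change (-1.43, adjusted p = 0.012) and edgeR did not (-1.42, adjusted p = 0.25). None of the 5 genes met this threshold, and groups of 3 replicates were not tested for outliers.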

How the results depend on the processing

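The number of the 5 genes called TE-low in the FL was 4 under every alternative run, except 5 with a threshold of 2-fold. In the NT it was 4, but 5 with a threshold of 2-fold, 2 with a pseudocount of 8 and 2 without centring, where *Nf2* and *Wwc1* moved just short of 3-fold, and 2 to 4 with 1 replicate left out. For FL minus NT, 2 genes changed in mRNA under all alternatives, RPF counts were 2 to 4 with replicates left out and 3 otherwise, and TE counts were 0, or 0 to 1 with replicates left out (1 without FL replicate 3). Leaving out replicate 3 of both tissues, chosen after seeing the data, gave 1. The RPF change of *Lats2* turned from -0.20 to 0.0016 with edgeR and ranged from -1.01 to 0.23 with replicates left out, highest without FL replicate 1. Of the 24 other genes, those TE-low in the NT were 1, but 2 with DESeq2, 4 with a threshold of 2-fold and 1 to 3 with 1 replicate left out. Those TE-low in the FL were 13, and 10 to 14 with 1 replicate left out. Those with a change in TE were 1, but 6 with DESeq2, 0 with edgeR, 0 with an adjusted p under 0.05, and 0 to 17 with replicates left out. All genes with a change in TE numbered 43, 736 with DESeq2, 4 with an adjusted p under 0.05 and 0 to 4773 with replicates left out. The cause of these differences was not tested.

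With the replicate number as a block over both tissues, 0 of the 5 genes had a change in TE, 2 in mRNA and 3 in RPFs, 0 of the 24 other genes a change in TE, and 6 of all genes. With the replicate block within tissue, run for TE only since the mRNA and RPF terms cannot be estimated with it, the counts were 0, 0 and 4. Deviations of NT and FL libraries of one number correlated at -0.29, -0.50 and -0.58 in Ribo-Seq and at -0.02, -0.22 and -0.24 in RNA-Seq. Both tissues came from the same embryos, but neither the labels nor these values show that equal numbers mark them. The change in TE of *Amot* was not called with the block over both tissues (limma adjusted p = 0.38) or within tissue (limma adjusted p = 0.26). The fit of TE in each tissue without the replicate block called 4 genes in the NT and 4 in the FL. Of all genes, those TE-low numbered 483 in the NT and 1501 in the FL, and 1317 and 2559 with a threshold of 2-fold. The fewest sequenced RPF reads of *Wwc1* were 39 in a mesoderm library and 62 in an FL library.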
